A study of Homo sapiens with 8 samples.

Results

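The Siglecs, sialic acid-binding immunoglobulin-like lectins, were followed in microglia derived from the human H1 line and kept either in tri-culture or in mono-culture. The members were the genes SIGLEC1, CD22, CD33, SIGLEC5, SIGLEC7, SIGLEC8, SIGLEC9, SIGLEC10, SIGLEC11 and SIGLEC14, chosen by symbol and matched to the deposited count table by Ensembl identifier. They are 10 of the 78899 genes in that table, and 9 of the 10 passed the filter on low counts. SIGLEC8 did not pass and is described by its counts.

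Siglecs are surface receptors whose outermost immunoglobulin domain binds sialic acid, the sugar that caps glycans on nearly all vertebrate cells. Most members of the CD33-related branch carry an inhibitory tyrosine motif in the cytoplasm that recruits the phosphatases SHP-1 and SHP-2, so that sialylated surfaces dampen the myeloid cell that meets them. A few members lack that motif and pair instead with the activating adaptor DAP12. On microglia the family is known as a brake on phagocytosis and inflammatory signalling, and CD33 is a risk locus for Alzheimer disease.

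Each group held 4 libraries of bulk RNA from GFP-labelled cells isolated by fluorescence sorting, harvested 2 weeks after the microglia were plated. Tri-cultures received no exogenous cytokine, and their partner cells are not named in the labels. Mono-cultures received IL-34 at 100 ng/mL and M-CSF at 10 ng/mL, both ligands of the CSF1 receptor. The culture format and the added cytokines therefore changed together and cannot be told apart. Both groups came from 1 line, which the labels call both induced pluripotent and H1, an embryonic stem cell line, and the libraries were numbered in 4 batches with 1 library of each group in each.

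Total counts ran between 17602010 and 24491765 per tri-culture library and between 17037481 and 33363972 per mono-culture library. All 12 microglia markers listed were tested, with a summed level of 4764 to 5806 CPM (counts per 1000000 counts, scaled by TMM factors) in tri-culture and 3676 to 4438 CPM in mono-culture. Of these, P2RY12, CX3CR1, TREM2 and SALL1 were higher in tri-culture by the test used below, ITGAM was lower and 7 were not called. That test called 13.9% of all tested genes higher and 13.0% lower. SALL1 had no count in mono-culture. In a bulk sample, fewer cells of a type and less RNA per cell cannot be told apart. The p-values below measure the spread between the 4 batches of 1 line.

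Of the 9 tested members, 1 was higher in tri-culture and 3 were lower at a Benjamini-Hochberg adjusted p under 0.05 by edgeR's quasi-likelihood test, and 5 were not called. SIGLEC10 was the higher one, and SIGLEC1, SIGLEC9 and SIGLEC11 the lower ones. Over all 16249 tested genes the same test called 26.9%, with 13.9% of genes higher and 13.0% lower. These are 2261 higher and 2112 lower genes, against 2829 higher and 1663 lower when libraries were scaled by size alone, which moved the median of all genes to 0.12 and changed no member's call. The same 4 members, of 9 tested, were those whose libraries did not overlap between the groups, against 29.4% of all tested genes (15.3% with tri-culture above and 14.1% with tri-culture below). The median log2 fold change was -0.34 over the 9 tested members and 0.02 over all tested genes. The plot of the members by library shows these values.

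**Figure D1:**
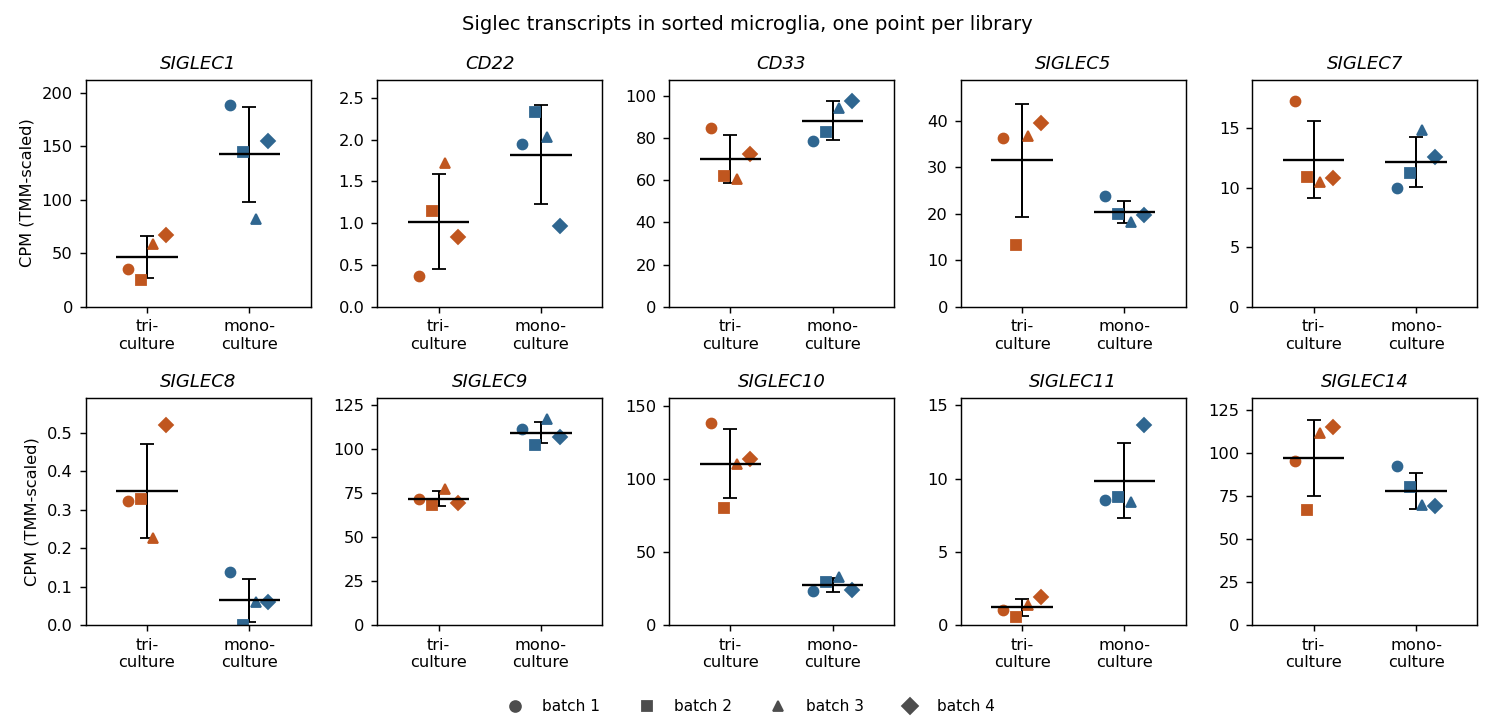
Level of each of the 10 Siglec members in CPM (counts per 1000000 counts, TMM-scaled, linear axis starting at 0, one scale per panel), with tri-culture on the left and mono-culture on the right. Each point is 1 library with its batch shown by the marker, and the bar and whiskers are the mean and SD of 4 libraries. SIGLEC10 lies higher in all 4 tri-culture libraries, and SIGLEC1, SIGLEC9 and SIGLEC11 lie lower.

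Some members share transcript sequence with a neighbour, which bears on how their reads could be assigned. The sequences before the start sites of the similar genes are shown because these pairs moved alike or overlap in the annotation. The likeness of these upstream sequences is not a measure of shared reads, for which transcripts are compared below. Each is the 250 bases upstream of the RefSeq start site on GRCh38.p14, read 5′ to 3′ on the gene's own strand, and capitals mark runs of at least 10 bases identical between the genes of a pair at the best ungapped alignment. SIGLEC11 lies at chr19:49961173-49961422 on the minus strand, SIGLEC16 at chr19:49969414-49969663 on the plus strand, SIGLEC5 at chr19:51630402-51630651 and SIGLEC14 at chr19:51646826-51647075, both on the minus strand.
SIGLEC11: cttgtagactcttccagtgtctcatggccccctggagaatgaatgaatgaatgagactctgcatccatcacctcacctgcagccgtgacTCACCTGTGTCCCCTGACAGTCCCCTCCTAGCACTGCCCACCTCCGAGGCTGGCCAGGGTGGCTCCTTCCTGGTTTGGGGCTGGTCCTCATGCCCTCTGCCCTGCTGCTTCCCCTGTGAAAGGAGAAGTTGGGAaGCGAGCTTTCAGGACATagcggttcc
SIGLEC16: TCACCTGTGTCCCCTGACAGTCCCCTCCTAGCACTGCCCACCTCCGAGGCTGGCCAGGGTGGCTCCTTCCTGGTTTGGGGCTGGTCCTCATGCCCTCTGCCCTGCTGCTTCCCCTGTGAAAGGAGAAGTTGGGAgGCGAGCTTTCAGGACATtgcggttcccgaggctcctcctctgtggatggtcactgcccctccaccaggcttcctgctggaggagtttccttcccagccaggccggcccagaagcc
SIGLEC5: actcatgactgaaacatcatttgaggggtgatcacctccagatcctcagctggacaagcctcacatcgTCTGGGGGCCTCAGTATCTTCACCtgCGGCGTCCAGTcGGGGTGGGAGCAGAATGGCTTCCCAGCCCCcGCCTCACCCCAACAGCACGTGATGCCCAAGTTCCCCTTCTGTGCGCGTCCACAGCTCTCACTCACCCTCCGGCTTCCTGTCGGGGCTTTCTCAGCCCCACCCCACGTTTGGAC
SIGLEC14: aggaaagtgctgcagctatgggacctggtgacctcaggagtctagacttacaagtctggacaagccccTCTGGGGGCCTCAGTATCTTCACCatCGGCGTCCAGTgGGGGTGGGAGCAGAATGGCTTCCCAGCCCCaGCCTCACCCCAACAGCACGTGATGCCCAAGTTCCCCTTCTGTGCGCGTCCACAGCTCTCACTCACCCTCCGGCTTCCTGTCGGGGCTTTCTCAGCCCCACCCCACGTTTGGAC

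For SIGLEC11 and SIGLEC16, 159 of 161 compared bases were identical (98.8%), with a longest run of 134 bases. For SIGLEC5 and SIGLEC14, 195 of 250 bases were identical (78.0%), with a longest run of 113 bases. Within the exons of the GENCODE 29 transcripts, 24.9% of the 50-base stretches of SIGLEC11 also occurred in SIGLEC16, and 31.7% of those of SIGLEC14 also occurred in the entry counted as SIGLEC5. Over all other genes, the share of 50-base stretches found elsewhere was 38.5% for SIGLEC11 and 8.43% for SIGLEC10, with 5.72% of those of SIGLEC10 found in SIGLEC11. At a length of 100 bases the share was 23.6% for SIGLEC11 and 1.55% for SIGLEC10. For SIGLEC1, CD22, CD33, SIGLEC7, SIGLEC8 and SIGLEC9 no 100-base stretch occurred in another gene.

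The 7-base motif CAGGAAG, sought on both strands in the same 250-base windows and chosen after the sequences had been seen, occurred in 6 of the 9 members with a window. These were CD33, SIGLEC5, SIGLEC7, SIGLEC9, SIGLEC11 and SIGLEC14, and 10.5% of 35116 windows held it. As the motif was chosen with these windows in view, the comparison is not a test of enrichment. The hits of SIGLEC5 and SIGLEC14, at -41 in both, and those of SIGLEC11 and SIGLEC16 in the shared stretch are not separate sequences. The windows of CD22, SIGLEC8 and SIGLEC10 held none. The 6-base motif GAGGAA occurred in 4 of the 9 members with a window (CD33, SIGLEC7, SIGLEC8 and SIGLEC9) and in 23.6% of all windows. For both motifs a member was counted once, even where, as for SIGLEC9, another start site gave a further window. Enrichment was not tested for either motif.

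SIGLEC10 is an inhibitory receptor of the CD33-related branch, found on B cells, monocytes and other leukocytes, that binds CD24 and CD52. It had 138, 80.3, 110.5 and 113.8 CPM in the tri-culture libraries of batches 1 to 4, against 23.2, 29.4, 33.0 and 23.9 CPM in the mono-culture libraries. The lowest tri-culture library stood well above the highest mono-culture library. SIGLEC10 averaged 110.7 ± 23.8 CPM in tri-culture and 27.4 ± 4.63 CPM in mono-culture (SD, n = 4 each), a log2 fold change of 2.01 ± 0.17 (SE) or 4.04-fold (edgeR adjusted p = 2.63e-06).

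SIGLEC10 was higher in tri-culture in 4 of 4 batches, with log2 ratios of CPM between 1.45 in batch 2 and 2.57 in batch 1. The gene lies at chr19:51410021-51417803 on the minus strand (GRCh38), and antisense genes cover 22.6% of its exon bases. Whether the authors counted by strand is not given in the sources used here. The 2 antisense genes there held 2 and 37 counts in tri-culture and 2 and 17 in mono-culture, beside 9607 counts in tri-culture and 2713 in mono-culture for SIGLEC10 itself.

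SIGLEC10 is also a B cell gene, and none of the 10 B cell markers listed passed the count filter. Their summed level was 0.589 to 0.816 CPM in tri-culture and 0.444 to 0.840 CPM in mono-culture, and CD79B, BLK, TNFRSF13B and IGHM were at 0 in all libraries. Among monocyte markers 6 of 8 tested were higher and 1 lower, beside 13.9% higher and 13.0% lower of all tested genes. Their summed levels were 244 to 485 CPM in tri-culture and 190 to 218 CPM in mono-culture. Among dendritic cell markers 4 of 10 tested were higher and 1 lower, with sums of 365 to 479 CPM in tri-culture and 183 to 219.5 CPM in mono-culture, and no marker of either list was at 0 in all libraries. The part of these cell types in the SIGLEC10 difference was not tested.

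SIGLEC1, also called sialoadhesin or CD169, is a macrophage receptor with a long extracellular part and no inhibitory motif. It captures sialylated cells, vesicles and viruses, and it is known as a gene induced by type I interferon. SIGLEC1 had 35.2, 24.4, 58.6 and 67.1 CPM in tri-culture, against 188, 144, 82.1 and 155 CPM in mono-culture. Batch 3 held the lowest mono-culture library, and it still exceeded every tri-culture library.

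SIGLEC1 averaged 46.3 ± 19.9 CPM in tri-culture and 142 ± 44.3 CPM in mono-culture (SD, n = 4 each), a log2 fold change of -1.62 ± 0.30 (edgeR adjusted p = 0.00125). It was lower in 4 of 4 batches, by log2 ratios between -2.56 in batch 2 and -0.49 in batch 3. The gene lies on the minus strand at chr20:3686970-3707128, away from the other members.

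Of 30 tested genes of the type I interferon response, 4 were higher (IFI44L, OAS1, RSAD2 and EPSTI1) and 2 lower (OAS3 and IFITM3), beside 26.9% of all tested genes called, with a median log2 fold change of 0.05. RSAD2, an antiviral enzyme, averaged 5.96 ± 0.843 CPM in tri-culture and 2.40 ± 0.700 CPM in mono-culture (edgeR adjusted p = 0.00153). IFITM3, which restricts viral entry, averaged 18.1 ± 5.05 CPM in tri-culture and 35.0 ± 6.40 CPM in mono-culture (edgeR adjusted p = 0.00211). IFI44L averaged 6.37 ± 1.55 CPM in tri-culture and 2.70 ± 0.481 CPM in mono-culture (edgeR adjusted p = 0.00173).

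CD22 is the inhibitory co-receptor of the B cell antigen receptor and binds sialic acid in α2,6 linkage. It was low in both groups, with 0.367, 1.14, 1.72 and 0.831 CPM in tri-culture and 1.95, 2.33, 2.03 and 0.960 CPM in mono-culture. The groups overlapped, and the log2 fold change of -0.84 ± 0.44 was not called (edgeR adjusted p = 0.192). Its counts summed to 90 in tri-culture and 183 in mono-culture, and it was lower in 4 of 4 batches.

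CD33, which gives its name to the branch, is an inhibitory receptor of myeloid cells. It had 85.1, 61.9, 60.5 and 72.8 CPM in tri-culture and 79.0, 82.9, 94.3 and 98.0 CPM in mono-culture. The groups overlapped through the batch 1 tri-culture library, and CD33 was lower in 3 of 4 batches. The log2 fold change of -0.34 ± 0.13 was not called (edgeR adjusted p = 0.0722). Without tri-culture replicate 1 it was -0.45 and called lower (edgeR adjusted p = 0.0160).

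SIGLEC9, an inhibitory receptor of monocytes and neutrophils, had the smallest relative spread of the members. It had 71.8, 68.2, 77.5 and 69.5 CPM in tri-culture and 111, 102, 117 and 107 CPM in mono-culture. No library overlapped between the groups. SIGLEC9 averaged 71.7 ± 4.12 CPM in tri-culture and 109 ± 6.16 CPM in mono-culture (SD, n = 4 each), a log2 fold change of -0.61 ± 0.096 (edgeR adjusted p = 0.000382). The log2 ratios within batches ran between -0.63 and -0.59.

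SIGLEC7 is an inhibitory receptor known from natural killer cells and monocytes that prefers disialylated glycans. It had 17.3, 10.9, 10.5 and 10.9 CPM in tri-culture and 9.96, 11.2, 14.8 and 12.6 CPM in mono-culture. It averaged 12.4 ± 3.27 CPM in tri-culture and 12.1 ± 2.08 CPM in mono-culture (SD, n = 4 each), and its log2 fold change of 0.03 ± 0.20 was not called (edgeR adjusted p = 0.947). The batch 1 tri-culture library stood apart, and without it the estimate was -0.18 and not called (edgeR adjusted p = 0.484). An antisense gene covers 22.7% of its exon bases.

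SIGLEC8, an inhibitory receptor of eosinophils and mast cells, was close to the limit of counting. It had 7, 8, 5 and 10 counts in tri-culture and 4, 0, 2 and 1 counts in mono-culture. On the CPM scale the groups did not overlap, which was so for 29.4% of all tested genes. An exact two-sided permutation test over the libraries gave an unadjusted p = 0.0286, the smallest that 4 against 4 allows. Any gene whose groups do not overlap reaches that p, so it adds nothing to the lack of overlap. In the edgeR fit with no count filter the log2 fold change was 2.22 ± 0.92 and not called (adjusted p = 0.108).

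Of 12 mast cell, eosinophil and basophil markers, 3 were tested, 1 (FCER1A) was higher and none was lower. The shares over all tested genes were 13.9% higher and 13.0% lower. MS4A2, HDC and CLC were at 0 in all libraries. Other untested markers held few counts. CCR3 held 73 counts in tri-culture and 8 in mono-culture, EPX 15 and 4, IL5RA 12 and 0, and KIT 3 and 0. PRG2 held 2 counts in tri-culture and 6 in mono-culture, and CPA3 held 0 and 1. The list summed to 63.6 to 127 CPM in tri-culture and 1.81 to 3.18 CPM in mono-culture. FCER1A, singled out after its values were seen, made up most of the tri-culture sum, with 87.6 ± 28.5 CPM in tri-culture and 0.0865 ± 0.0723 CPM in mono-culture. FCER1A, which encodes a chain of the IgE receptor, is also carried by dendritic cells. The part of such cells in the SIGLEC8 counts was not tested.

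SIGLEC11 is an inhibitory receptor found on human microglia and tissue macrophages, and it binds polysialic acid. It had 1.06, 0.530, 1.36 and 1.92 CPM in tri-culture against 8.56, 8.77, 8.38 and 13.7 CPM in mono-culture. Every tri-culture library lay far below every mono-culture library. SIGLEC11 averaged 1.22 ± 0.582 CPM in tri-culture and 9.85 ± 2.56 CPM in mono-culture (SD, n = 4 each), and its log2 fold change of -3.02 ± 0.33 (edgeR adjusted p = 2.11e-05) was the largest in size among the members.

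SIGLEC16, not among the 10 members, is the DAP12-linked counterpart of SIGLEC11 and is intact or a pseudogene depending on the allele. GENCODE 29 lists it as a transcribed pseudogene at chr19:49969673-49975814 on the plus strand, beside SIGLEC11 at chr19:49948985-49961172 on the minus strand. It had 2.25, 1.92, 3.36 and 3.33 CPM in tri-culture and 13.1, 14.1, 12.3 and 17.0 CPM in mono-culture. SIGLEC16 was lower in every tri-culture library than in any mono-culture library, with a log2 fold change of -2.38 ± 0.22 (edgeR adjusted p = 4.83e-06).

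Because reads from the shared transcript stretches could be assigned to either gene or dropped, the separate values of SIGLEC11 and SIGLEC16 are uncertain. With their counts summed, a setting chosen after the data were seen, the log2 fold change was -2.61 (edgeR adjusted p = 3.88e-06). On the deposited scale per length, SIGLEC16 stood at 2.04 ± 0.666 times SIGLEC11 in tri-culture and 1.21 ± 0.129 times in mono-culture (SD of the ratio, n = 4 each). The plot of genes of similar sequence shows both.

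**Figure D2:**
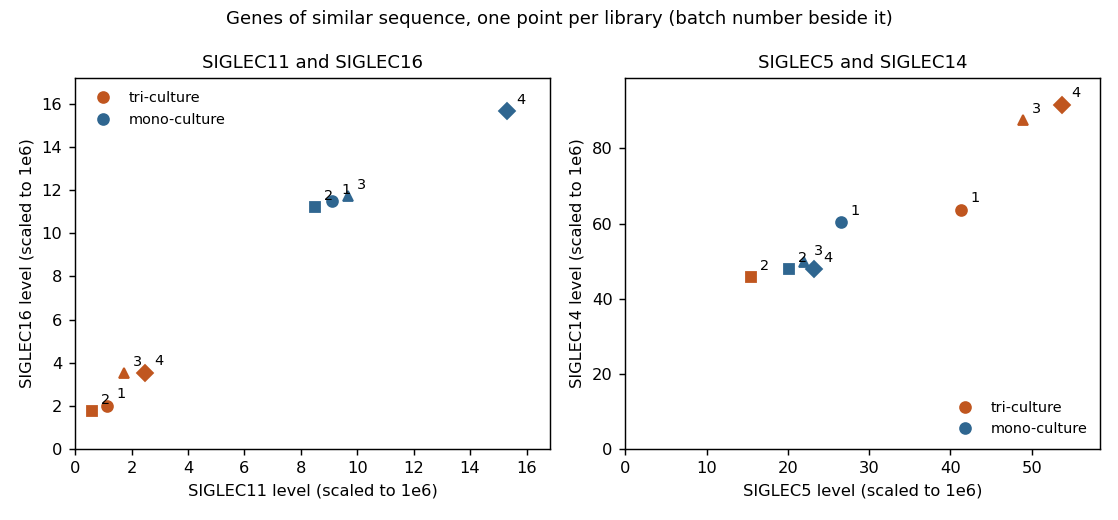
Level per length of SIGLEC16 against SIGLEC11 (left) and of SIGLEC14 against SIGLEC5 (right), as deposited and rescaled to 1000000 per library, linear axes from 0. Each point is 1 library with its batch number beside it. In the left panel the tri-culture points lie near the origin, apart from the mono-culture points, and in the right panel the batch 2 tri-culture library lies below the mono-culture libraries.

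SIGLEC14 lacks the inhibitory motif and signals through DAP12, and its sialic acid-binding domain is nearly the same as that of SIGLEC5, an inhibitory receptor. SIGLEC14 had 95.6, 66.8, 111.9 and 115.2 CPM in tri-culture and 92.2, 80.2, 70.1 and 69.4 CPM in mono-culture. It was higher in 3 of 4 batches, the groups overlapped, and the log2 fold change of 0.32 ± 0.16 was not called (edgeR adjusted p = 0.179).

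SIGLEC5 had 36.3, 13.2, 36.6 and 39.5 CPM in tri-culture and 23.8, 19.8, 18.2 and 19.7 CPM in mono-culture. The batch 2 tri-culture library was the lowest of all 8, while the other 3 tri-culture libraries exceeded every mono-culture library. SIGLEC5 averaged 31.4 ± 12.2 CPM in tri-culture and 20.4 ± 2.38 CPM in mono-culture (SD, n = 4 each), and its log2 fold change of 0.62 ± 0.26 was not called (edgeR adjusted p = 0.104). Without tri-culture replicate 2, SIGLEC5 was called higher at 0.88 (edgeR adjusted p = 0.000349) and SIGLEC14 at 0.46 (edgeR adjusted p = 0.0186).

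The library of batch 2 was also the lowest tri-culture library for SIGLEC10, SIGLEC1, SIGLEC9, SIGLEC11 and SIGLEC14, while it was the highest for SIGLEC15. It had the most counts of the tri-culture libraries, 24491765.

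The counts of SIGLEC5 come from an Ensembl entry at chr19:51612091-51646889 on the minus strand, which GENCODE 29 names AC018755.2 and which spans SIGLEC14 at chr19:51642553-51646801. Of its exon bases 76.1% also belong to the other SIGLEC5 entry, which held 1 count over all libraries, and 22.2% of the exon bases of SIGLEC14 lie in it. Reads of SIGLEC5 and SIGLEC14 may therefore have been split or left out, and with their counts summed, also chosen after the data were seen, the log2 fold change was 0.39 and not called (edgeR adjusted p = 0.139). The SIGLEC5 sequence shown above precedes the RefSeq start site, which is not the start of the counted entry.

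SIGLEC15 is a DAP12-linked Siglec of osteoclasts and macrophages outside the CD33-related branch. It had 8.04, 12.5, 7.75 and 7.48 CPM in tri-culture and 19.4, 14.8, 17.6 and 11.0 CPM in mono-culture. The groups overlapped, but it was lower in 4 of 4 batches, with a log2 fold change of -0.81 ± 0.21 (edgeR adjusted p = 0.0126).

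The pseudogenes SIGLEC17P and SIGLEC18P were low and called lower, at -2.78 ± 0.45 (edgeR adjusted p = 0.000427) and -1.35 ± 0.40 (edgeR adjusted p = 0.0249). SIGLEC17P held 24 counts in tri-culture and 191 in mono-culture, and SIGLEC18P held 30 in tri-culture and 87 in mono-culture. The plot of fold changes sets these beside the members.

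**Figure D3:**
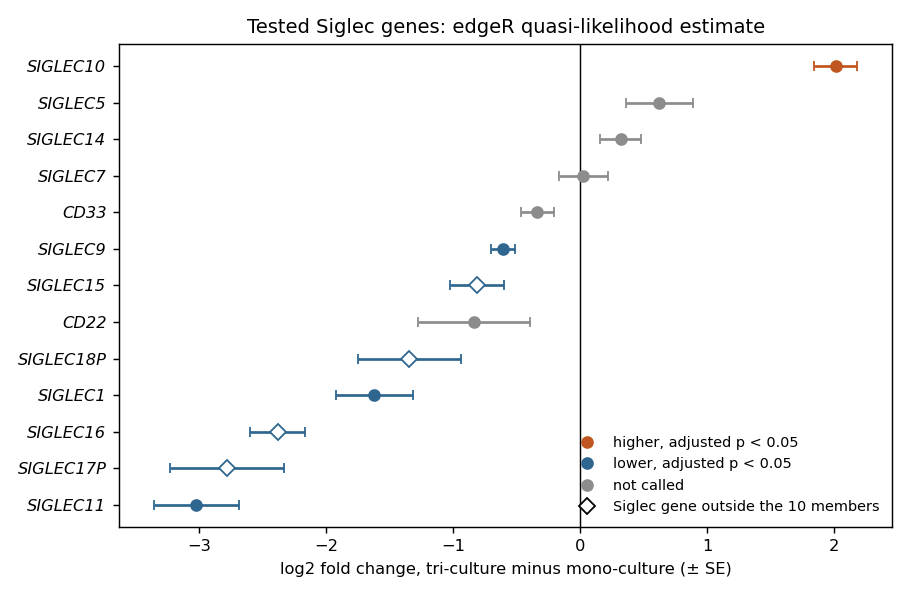
Log2 fold change of each tested Siglec gene, tri-culture minus mono-culture, with its SE (horizontal axis), by edgeR's quasi-likelihood fit. Circles are members and open diamonds other Siglec genes, with colour for the call at an adjusted p under 0.05. SIGLEC10 at 2.01 is the one called higher, and SIGLEC11 at -3.02 and SIGLEC16 at -2.38 are called lower.

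The remaining Siglec genes were at or near the limit of counting. SIGLEC12, which has lost sialic acid binding in humans, held 38 counts in tri-culture and 14 in mono-culture (exact permutation p = 0.0571). SIGLECL1 held 3 counts in tri-culture and 27 in mono-culture (exact permutation p = 0.0571). These permutation p-values were not adjusted. MAG, the Siglec of myelin, held 0 counts in tri-culture and 2 in mono-culture, and SIGLEC6 held 0 in tri-culture and 1 in mono-culture. A count of 0 over the 4 tri-culture libraries allows up to 0.0343 CPM (3 counts), so differences in MAG and SIGLEC6 were not detectable at this depth.

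Levels of different genes were compared only per length, on the deposited scale rescaled to 1000000 per library. In tri-culture SIGLEC10 was the most abundant member at 114.5 ± 24.7, followed by SIGLEC14 at 72.2 ± 21.5, SIGLEC9 at 45.7 ± 5.66, SIGLEC5 at 39.9 ± 17.0, CD33 at 31.4 ± 4.57, SIGLEC1 at 22.0 ± 11.1 and SIGLEC7 at 21.2 ± 4.20 (SD, n = 4 each). The ranges of neighbours in this order overlapped down to SIGLEC7, which lay above SIGLEC11 (1.49 ± 0.812) without overlap. CD22 and SIGLEC8 were lowest, at 0.630 ± 0.378 and 0.418 ± 0.172.

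In mono-culture SIGLEC9 was first at 63.1 ± 7.79, and SIGLEC1 at 59.1 ± 17.6 and SIGLEC14 at 51.4 ± 6.04 overlapped its range. CD33 at 36.2 ± 5.93 lay below SIGLEC14 without overlap, then came SIGLEC10 at 25.6 ± 5.12, SIGLEC5 at 23.0 ± 2.68 and SIGLEC7 at 19.2 ± 4.48. SIGLEC11 at 10.6 ± 3.14, CD22 at 0.989 ± 0.299 and SIGLEC8 at 0.0706 ± 0.0598 followed, each without overlap with its neighbour above. SIGLEC10 thus ranked 1 in tri-culture and 5 in mono-culture, while SIGLEC1 ranked 6 in tri-culture and 2 in mono-culture.

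Summed per length, the 10 members reached 349 ± 79.6 in tri-culture and 289 ± 23.2 in mono-culture (SD, n = 4 each), and the groups overlapped. In CPM, which does not account for gene length, the members summed to 328 to 492 in tri-culture and 440 to 538 in mono-culture, so the order of the groups depended on the scale and the ranges overlapped on both. Of the sum over 16 Siglec genes, SIGLEC10 made up 31.6% ± 2.65 in tri-culture and 8.12% ± 1.77 in mono-culture (SD, n = 4 each). SIGLEC1 made up 5.82% ± 1.98 in tri-culture and 18.5% ± 4.97 in mono-culture. SIGLEC9 made up 12.9% ± 2.30 in tri-culture and 19.8% ± 1.73 in mono-culture. The ranges of these 3 shares did not overlap between the groups.

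The ratio of SIGLEC10 to SIGLEC9 per length, which does not depend on library scaling, was 3.13, 1.92, 2.32 and 2.66 in tri-culture and 0.339, 0.467, 0.459 and 0.365 in mono-culture. All 4 tri-culture libraries held more SIGLEC10 than SIGLEC9, and all 4 mono-culture libraries held less. The ratio of SIGLEC10 to CD33 was 3.63 ± 0.501 in tri-culture and 0.714 ± 0.120 in mono-culture (SD, n = 4 each).

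**Figure D4:**
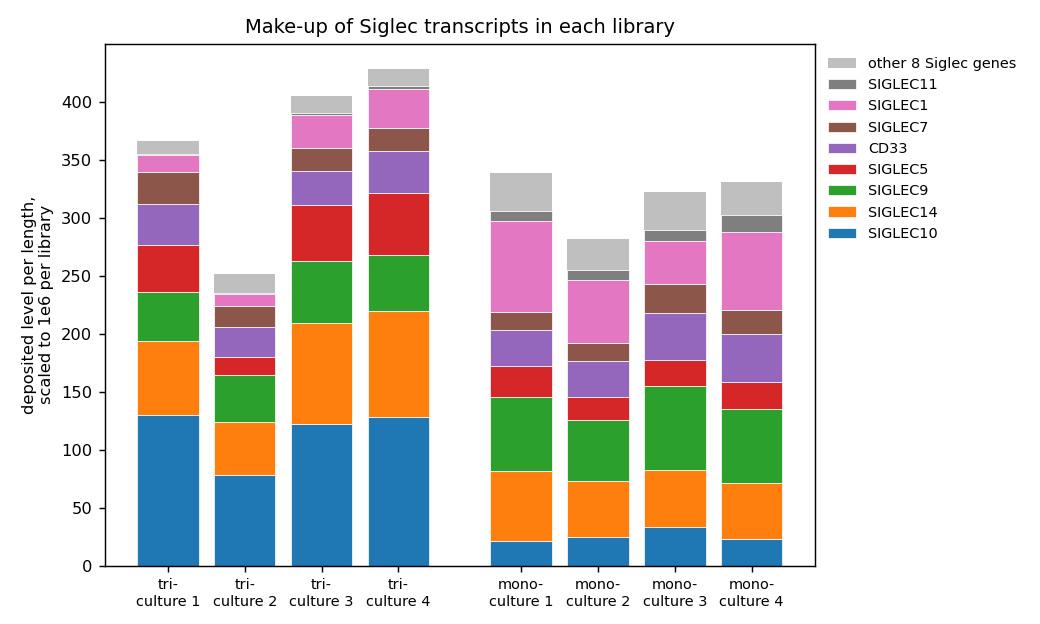
Summed level per length of 16 Siglec genes in each library (deposited values rescaled to 1000000 per library, stacked bars from 0), with the 4 tri-culture libraries left and the 4 mono-culture libraries right. SIGLEC10, at the base of each bar, makes up 29.9% to 35.6% in tri-culture and 6.35% to 10.3% in mono-culture.

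A run of 6 tested Siglec genes lies in a cluster on chromosome 19, chr19:51124908-51646801 (GRCh38), which spans 521.9 kb and holds 53 annotated genes. Of the 12 genes tested there, 6 are not Siglecs, and 1 of these was higher, none lower and 5 not called. The higher one was ZNF175, a zinc finger gene, with 21.3 ± 1.74 CPM in tri-culture and 12.5 ± 1.77 CPM in mono-culture (log2 fold change 0.77 ± 0.14, edgeR adjusted p = 0.00116). SIGLEC10 and SIGLEC9, both in the cluster, were called in opposite directions, and the plot along the cluster shows no shared direction.

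**Figure D5:**
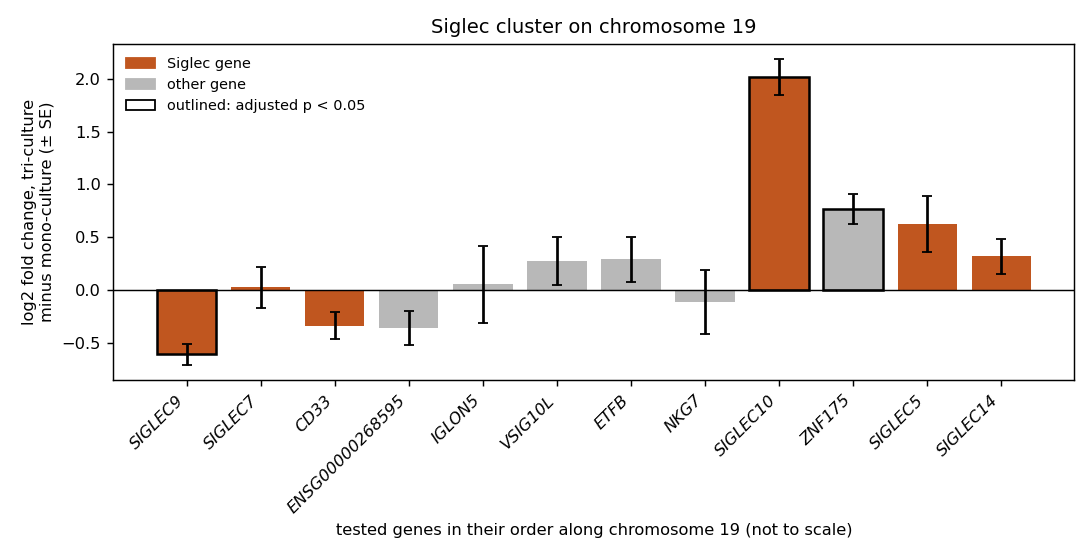
Log2 fold change with its SE (vertical axis) of the 12 tested genes of the chromosome 19 cluster, in their order along the chromosome and not to scale. Bars of Siglec genes are orange and others grey, and an outline marks an adjusted p under 0.05. SIGLEC9 at one end is lower at -0.61, and SIGLEC10 at 2.01 stands apart from its tested neighbours.

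Of 11 tested adaptors, kinases and phosphatases through which Siglecs signal, 1 was higher (SYK) and 2 lower (LYN and HCST), a share near the 26.9% of all tested genes, with a median log2 fold change of -0.20. PTPN6, which encodes SHP-1, averaged 226 ± 14.0 CPM in tri-culture and 221 ± 21.5 CPM in mono-culture, and its log2 fold change of 0.04 ± 0.11 was not called (edgeR adjusted p = 0.843). PTPN11, which encodes SHP-2, averaged 169 ± 20.8 CPM in tri-culture and 202 ± 11.2 CPM in mono-culture and was not called (edgeR adjusted p = 0.122). Without tri-culture replicate 2, PTPN11 was called lower at -0.33 (edgeR adjusted p = 0.0475).

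TYROBP, which encodes DAP12, averaged 602 ± 163 CPM in tri-culture and 669 ± 120 CPM in mono-culture and was not called (edgeR adjusted p = 0.618). HCST, which encodes the related adaptor DAP10, averaged 1.69 ± 0.255 CPM in tri-culture and 5.73 ± 2.10 CPM in mono-culture, a log2 fold change of -1.75 ± 0.31 (edgeR adjusted p = 0.000834). SYK, the kinase downstream of DAP12, averaged 540 ± 23.1 CPM in tri-culture and 385 ± 40.6 CPM in mono-culture, a log2 fold change of 0.49 ± 0.12 (edgeR adjusted p = 0.00682).

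LYN, a kinase that phosphorylates inhibitory motifs, averaged 307 ± 9.71 CPM in tri-culture and 380 ± 26.9 CPM in mono-culture, at -0.31 ± 0.10 (edgeR adjusted p = 0.0440). With batch as a block it was -0.31 and not called (edgeR adjusted p = 0.0535), and it lost the call in 12 of 17 alternatives.

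Siglec ligands on the microglia themselves depend on the enzymes that make and remove sialic acid. Of 5 tested genes of sialic acid synthesis, none was higher and 1 was lower, with a median log2 fold change of -0.35. Over all tested genes 13.9% were higher and 13.0% lower. That gene was NANP, a phosphatase of the pathway, with 14.3 ± 1.75 CPM in tri-culture and 23.8 ± 1.73 CPM in mono-culture (log2 fold change -0.73 ± 0.13, edgeR adjusted p = 0.00103). GNE, the enzyme that starts the pathway, named after its values were seen, averaged 13.8 ± 0.835 CPM in tri-culture and 17.6 ± 1.29 CPM in mono-culture and was not called (edgeR adjusted p = 0.0535).

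Of 13 tested sialyltransferases, which attach sialic acid to glycans, 4 were higher (ST6GAL1, ST8SIA1, ST8SIA3 and ST8SIA4) and 3 lower (ST3GAL1, ST3GAL2 and ST3GAL5). The other 6 were not called, and the median was -0.15. The shares over all tested genes were 13.9% higher and 13.0% lower. ST3GAL5, the synthase of the ganglioside GM3, averaged 50.4 ± 2.44 CPM in tri-culture and 100.3 ± 10.9 CPM in mono-culture, a log2 fold change of -0.99 ± 0.11 (edgeR adjusted p = 1.74e-05). ST3GAL2 averaged 42.5 ± 2.35 CPM in tri-culture and 62.4 ± 7.89 CPM in mono-culture (edgeR adjusted p = 0.00280).

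ST8SIA4, which makes polysialic acid, averaged 145 ± 18.2 CPM in tri-culture and 101 ± 8.47 CPM in mono-culture (edgeR adjusted p = 0.00440), and ST6GAL1, which makes the α2,6 linkage bound by CD22, averaged 323 ± 37.9 CPM in tri-culture and 228 ± 30.7 CPM in mono-culture (edgeR adjusted p = 0.0117). Both were named after their values were seen. ST8SIA3 averaged 1.47 ± 0.963 CPM in tri-culture and had no count in mono-culture, at least 47.6-fold higher against 3 counts over the mono-culture group.

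Of 6 tested sialidase and O-acetylation genes, 3 were lower and none higher, beside 13.0% lower and 13.9% higher of all tested genes. Their median was -0.31. NEU1, the lysosomal sialidase, averaged 104 ± 7.59 CPM in tri-culture and 158 ± 34.4 CPM in mono-culture (edgeR adjusted p = 0.00695). CTSA, the protease that stabilises NEU1, averaged 137 ± 5.96 CPM in tri-culture and 185 ± 19.1 CPM in mono-culture (edgeR adjusted p = 0.00815). NPL, which cleaves free sialic acid, averaged 309 ± 52.0 CPM in tri-culture and 471 ± 93.1 CPM in mono-culture (edgeR adjusted p = 0.0119).

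Of 8 tested protein counter-receptors, sialylated proteins known to bind Siglecs, 6 were higher (CD24, SPN, CD52, PODXL, PTPRZ1 and CLU), 1 lower (LGALS3BP) and 1 not called. All tested genes were 13.9% higher and 13.0% lower. The median log2 fold change of the counter-receptors was 1.24. PTPRZ1, a phosphatase of glial cells, averaged 13.8 ± 6.85 CPM in tri-culture and had no count in mono-culture, at least 447-fold higher against 3 counts over the mono-culture group. CLU, a secreted chaperone, averaged 54.1 ± 32.6 CPM in tri-culture and 0.434 ± 0.168 CPM in mono-culture (edgeR adjusted p = 1.24e-06). PODXL averaged 16.5 ± 8.16 CPM in tri-culture and 1.79 ± 0.620 CPM in mono-culture (edgeR adjusted p = 4.18e-05). CD24, the SIGLEC10 ligand, named after its values were seen, averaged 12.1 ± 2.60 CPM in tri-culture and 4.37 ± 1.14 CPM in mono-culture (edgeR adjusted p = 0.000343).

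PTPRZ1, CLU and ST8SIA3 are genes of neural or glial cells too. Over all tested genes 13.9% were higher and 13.0% lower. Among astrocyte markers 9 of 14 tested were higher and 2 lower, and none was at 0 in all libraries. They summed to 1311 to 1518 CPM in tri-culture and 1049 to 1429 CPM in mono-culture. VIM, called lower and singled out after its values were seen, was the largest part of both sums. It had 569 ± 35.1 CPM in tri-culture and 948 ± 136 CPM in mono-culture, so the sums do not show how the other markers differed. GFAP, the astrocyte filament gene, singled out after its values were seen, averaged 167 ± 81.1 CPM in tri-culture and 0.296 ± 0.153 CPM in mono-culture. Among neuron markers 4 of 6 tested were higher and 1 lower, with sums of 31.0 to 56.9 CPM in tri-culture and 25.3 to 47.8 CPM in mono-culture. Among oligodendrocyte markers 3 of 5 tested were higher and none lower, with sums of 301 to 408 CPM in tri-culture and 251 to 294 CPM in mono-culture, and MOG and MOBP were at 0 in all libraries. The part of these cells in the counter-receptor and sialyltransferase values was not tested.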

How the data were processed

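RNA of GFP-labelled H1-derived microglia was sequenced in bulk in 8 libraries, 4 of tri-culture and 4 of mono-culture. The deposited counts are whole reads per gene. The submitters' processing notes name HISAT2 2.1.0, featureCounts 2.12.3 and GRCh38 for them. Annotation release and strand setting are not given in the sources. A second deposited table holds a signal per gene length whose library totals differ. For levels between genes it was rescaled to 1000000 per library. As deposited, without rescaling, it also served the limma alternatives named below.

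The members and gene lists were chosen with earlier results of these data known. Genes were filtered with filterByExpr (minimum count 10, minimum total count 15), scaled with TMM and tested on the counts with edgeR 4.0.16 in R 4.3.3 (quasi-likelihood, robust, group only), with Benjamini-Hochberg adjustment over the 16249 genes tested and a threshold of 0.05. Positive log2 fold changes mean higher in tri-culture, and the SE is the absolute value divided by the square root of F. The fit was tested on simulated data. Alternatives changed the scaling, the filter, the tool (DESeq2 1.42.0 and limma 3.58.1 on the signal, with pseudocounts of 0.5 and 1), the batch term and the libraries used.

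The text names all members and other Siglec genes, up to 3 called genes of each pathway list with the smallest adjusted p, PTPN6, PTPN11, TYROBP and HCST, called genes within the cluster, and the 3 genes most correlated with the leading member in each direction. The labels give a shared batch to libraries of the same number. Their deviations from the group means correlated at 0.185, 0.126, 0.264 and 0.0796 in batches 1 to 4. For the tri-culture libraries of batches 2 and 3 the best-correlated mono-culture library was that of the same batch. For those of batches 1 and 4 it was another. Coordinates are from GENCODE 29, and start-site sequences are from RefSeq on GRCh38.p14, where 9 of 10 members had a window. Floors cover counting error only.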

Additional observations from a re-analysis of the deposited data

Results flagged for a closer look

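Within each group of 4 libraries, 1 library was called apart where its gap to the nearest other over the group's range exceeded Dixon's critical value for 4 samples at 95%. This held in 10 of 66 groups looked at, and chance gives about 1 in 20. SIGLEC5 stood at 13.2 CPM in tri-culture replicate 2 (others 36.3 to 39.5), SIGLEC15 at 12.5 CPM in the same library (others 7.48 to 8.04), and SIGLEC7 at 17.3 CPM in tri-culture replicate 1 (others 10.5 to 10.9). In mono-culture, SIGLEC11 stood at 13.7 CPM in replicate 4 (others 8.38 to 8.77). MAG had 0.0685 CPM in mono-culture replicate 1 and SIGLEC6 had 0.0298 CPM in mono-culture replicate 3, with 0 in the others of their group. These came from 2 counts of MAG and 1 count of SIGLEC6, where any count in a single library stands apart by construction, so they do not bear on the rate that chance gives.

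Among the pathway genes, ST3GAL2 stood at 39.0 CPM (others 43.2 to 43.9) and IFITM3 at 25.6 CPM (others 15.3 to 16.0) in tri-culture replicate 1. SYK stood at 446 CPM (others 358 to 372) and NPL at 610 CPM (others 414 to 434) in mono-culture replicate 1.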

How the results depend on the processing

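SIGLEC1, SIGLEC9, SIGLEC10 and SIGLEC11 kept their direction and their call in all 17 alternatives. With batch as a replicate block, 1 member was higher and 3 lower, as in the fit without it. SIGLEC10 was then at 2.00 (edgeR adjusted p = 1.42e-06) and SIGLEC11 at -3.07 (edgeR adjusted p = 9.79e-07). Of the 30 genes recomputed, LYN was the one that lost a call under the block. The number of members called higher was 2 with no filter on low counts, where SIGLEC5 reached 0.59 (edgeR adjusted p = 0.00252). It ran between 1 and 3 when 1 library was left out, with 3 without tri-culture replicate 2, and the number called lower ran between 3 and 4. The sign of SIGLEC7 turned, without a call, to -0.18 without tri-culture replicate 1, -0.061 without mono-culture replicate 1 and -0.017 without mono-culture replicate 2, and its highest value was 0.13. PTPN6 likewise turned to -0.0047 without mono-culture replicate 3, with 0.10 as its highest value when 1 library was left out. The cause was not tested.

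At this depth SIGLEC8, SIGLEC12, SIGLECL1, MAG and SIGLEC6 were too low for the test.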

Other observations

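Over the 8 libraries, the genes whose log2 CPM correlated most with SIGLEC10, of 10429 genes with a mean of at least 5 CPM, were CMTR1 (Pearson r = 0.994), TAGLN (0.991) and C3 (0.991). C3, the central complement component, averaged 3719 ± 891 CPM in tri-culture and 308 ± 52.0 CPM in mono-culture (SD, n = 4 each). For SIGLEC11 they were SLCO3A1 (0.992), AGPAT3 (0.992) and FSCN1 (0.991), and FSCN1, an actin-bundling gene, averaged 345 ± 67.1 CPM in tri-culture and 1014 ± 128 CPM in mono-culture. The 8 libraries fall into 2 groups that differ in each of these genes, and no p is given.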
